A study of Mus musculus with 3 samples.

Results

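Non-myelinating Schwann-like cells of mouse dorsal root ganglia (DRGs) were examined in 3 single-cell libraries. The cells were chosen by their counts of unique molecular identifiers (UMIs, each standing for 1 captured mRNA molecule). A member had at least 2 UMIs of Scn7a and at least 1 UMI of at least 1 of 7 further genes, Cadm2, Chl1, Ngfr, Rxrg, Rasgef1c, Epb41l4b and Entpd2. It also had Fabp7 below 0.5% of its UMIs, at most 1 UMI of Mag, Prx and Ncmap together, at most 1 of Snap25 and Rbfox3 together, and 0 of Dcn, Lum and Pecam1. Of 9662 cells kept, among 11937 barcodes, 350 were members. Since these counts selected the cells, the levels of the rule genes are a description of the choice and support nothing here.

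The study compared DRGs of untreated mice with DRGs taken after spared nerve injury (SNI), a model of neuropathic pain in which branches of the sciatic nerve are cut and 1 branch is left intact. All mice were male C57BL/6J animals 13 weeks old, and the L3 and L4 DRGs of both sides were dissociated with enzymes and prepared with the 10x Genomics 3′ kit from polyA RNA. One library held naive mice, 1 held mice 7 days after SNI on both sides and 1 held mice 14 days after it. Each library pooled 8 DRGs of 2 mice, so there was 1 library per condition, no difference between conditions could be tested, and mouse, preparation and condition cannot be told apart. Intervals below are exact 95% intervals and cover counting error alone. Sequencing gave 23107376 UMIs over 3748 barcodes from naive mice, 22343246 over 3281 at day 7 and 36550911 over 4908 at day 14. Naive and day 7 libraries shared 1 barcode, naive and day 14 libraries 6, and the injured libraries 2, none of them among members of both.

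Non-myelinating Schwann cells, also called Remak cells, wrap the thin axons of nociceptive and autonomic fibers in separate grooves without forming myelin. They arise from the neural crest under the transcription factor Sox10, depend on neuregulin signaling from the axon, and carry adhesion molecules such as Ncam1 and L1cam that myelinating Schwann cells switch off. After axon damage, Schwann cells can enter a repair state in which Jun drives trophic factors and matrix proteins, whereas satellite glia, which express Fabp7, surround the neuronal bodies in the ganglion.

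The members numbered 142 of 3152 kept cells in the naive library (4.51%, Clopper-Pearson interval 3.81% to 5.29%), 80 of 2682 at day 7 (2.98%, 2.37% to 3.70%) and 128 of 3828 at day 14 (3.34%, 2.80% to 3.96%). The measured share was highest in the naive library, whose interval does not meet that of the day 7 library and overlaps that of the day 14 library. With a single Scn7a UMI allowed, the shares were 4.92%, 4.18% and 4.08%, and the gap between naive and injured libraries narrowed. Members held 276925 UMIs in the naive library, 199006 at day 7 and 423030 at day 14, so that 1 UMI weighed 3.61, 5.02 and 2.36 counts per 1000000 UMIs of the members (CPM). The median member had 1802.5 UMIs and 1116 genes in the naive library, 2248 and 1359 at day 7, and 2594.5 and 1459.5 at day 14. Depth therefore moved with condition, as did the median mitochondrial share, at 9.56%, 11.7% and 12.3%, and their part in the results was not tested beyond the thinned values and the stricter limits on cells given below.

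Several members lay close to a limit of the rule. Exactly 2 Scn7a UMIs were found in 13 naive, 10 day 7 and 20 day 14 members, and 13, 32 and 28 cells met every other limit with exactly 1. A share of Fabp7 within 0.1 percentage points under the limit occurred in 3, 0 and 3 members, and within that distance above it in 5, 2 and 1 other cells. One UMI of the myelin genes Mag, Prx and Ncmap was carried by 27, 17 and 27 members, and 8, 2 and 8 cells were left out with exactly 2. One UMI of the neuronal genes Snap25 and Rbfox3 was carried by 5, 6 and 10 members, and 0, 2 and 1 cells were left out with exactly 2. Among cells with at least 2 Scn7a UMIs, which numbered 307, 196 and 376, the limit on Dcn, Lum and Pecam1 alone removed 10, 22 and 71. Of these, 10, 18 and 58 had over 10 UMIs of those fibroblast and endothelial genes, and 0, 3 and 12 had exactly 1. No doublet caller was run, and the limits on genes of other cell types were the sole guard against doublets.

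Scn7a encodes an atypical sodium channel that responds to extracellular sodium. Members held 4546.4 CPM of it in the naive library, 4557.7 at day 7 and 2744.5 at day 14. The day 14 level was the lowest of the 3. Chl1, a neural adhesion molecule, stood at 1068.9, 1155.7 and 1196.1 CPM, and the synaptic adhesion gene Cadm2 at 469.4, 512.5 and 364.0 CPM. Entpd2, an enzyme that breaks down extracellular ATP, reached 751.1, 899.5 and 780.1 CPM, and the nuclear receptor Rxrg 325.0, 356.8 and 257.7 CPM. Epb41l4b measured 675.3, 598.0 and 420.8 CPM and Rasgef1c 223.9, 201.0 and 148.9 CPM. The neurotrophin receptor Ngfr had 133.6, 85.4 and 288.4 CPM. Of these 8 genes, 6 were lower at day 14 than at day 7, while Chl1 and Ngfr were higher. At least 3 of the 7 further genes were present in 71.1%, 85.0% and 82.8% of members, and 16, 9 and 7 members carried exactly 1 of them. Of the 9 genes with an upper limit, 3 were at 0 in every member (Dcn, Lum and Pecam1), and Fabp7 was the most abundant at 877.5, 829.1 and 912.5 CPM.

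Genes that the rule did not use describe the members further. Cdh19, a cadherin of the Schwann lineage, stood at 1664.7, 1633.1 and 1531.8 CPM, against 436.3, 578.5 and 675.7 CPM in cells with Fabp7 of at least 0.5% and 171.6, 164.9 and 206.6 CPM in cells with at least 3 UMIs of Mag, Prx and Ncmap, both with at most 1 Scn7a UMI. L1cam, which binds the axon surface, was measured at 534.4, 497.5 and 472.8 CPM, whereas Fabp7-high cells had 101.2, 113.4 and 115.8 CPM and the Mag, Prx and Ncmap cells 6.13, 8.16 and 9.68 CPM. Of these 3 classes, the members had the highest level of both genes in each library. Ncam1 stood at 913.6, 994.9 and 869.9 CPM and did not separate members from Fabp7-high cells, which had 1185.0, 1204.7 and 1136.1 CPM. Among 10 listed markers of non-myelinating Schwann cells, all had a mean of at least 50 CPM in the members, as did 3874 of all 31053 genes. Their summed level was 4694.4, 4909.4 and 4586.0 CPM, against 3160.7, 3448.7 and 3678.0 CPM in cells with Entpd2 and Cdh19 but 0 Scn7a UMIs and 2734.9, 3042.0 and 3071.1 CPM in Fabp7-high cells. The myelin genes Gjb1 and Pmp2 had 0 UMIs in members of any library, though the limit on Mag, Prx and Ncmap partly builds low myelin counts into the choice.

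**Figure D1:**
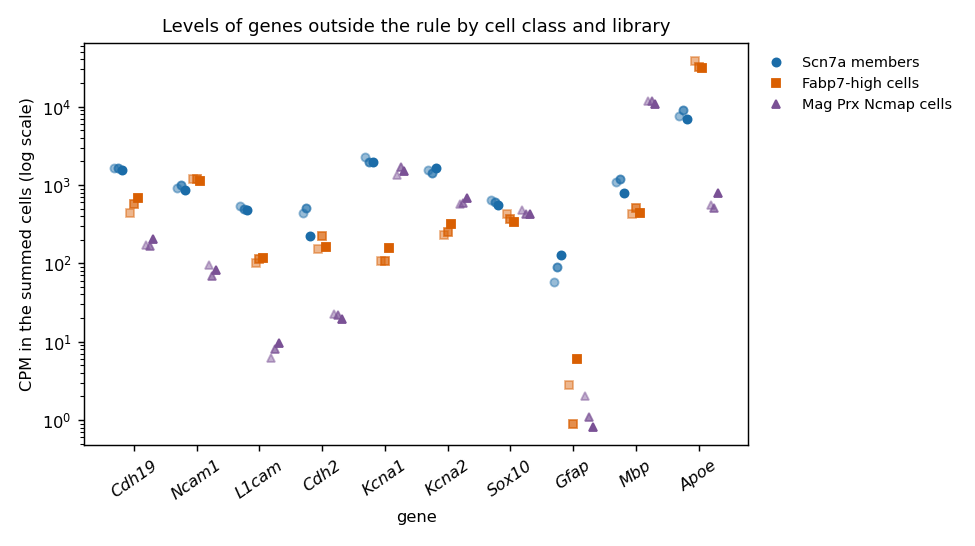
Levels of 10 genes that the rule did not use, in CPM of the summed cells on a log axis, in the members, in Fabp7-high cells and in Mag, Prx and Ncmap cells; the lightest symbol of each trio is the naive library, the middle one day 7 and the darkest day 14. Cdh19, L1cam, Cdh2, Kcna1, Kcna2, Sox10 and Gfap lie highest in the members, Mbp in the Mag, Prx and Ncmap cells, and Apoe and Ncam1 in Fabp7-high cells.

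Expression of the remaining genes was compared cell by cell with summed profiles of 5 classes taken from the 2 other libraries, without rule genes, mitochondrial genes or ribosomal protein genes. The profile of the members was the closest for 132 of 142 naive members (93.0%, 87.4% to 96.6%), 70 of 80 at day 7 (87.5%, 78.2% to 93.8%) and 112 of 128 at day 14 (87.5%, 80.5% to 92.7%). Another 10, 9 and 12 members were closest to cells that had Entpd2 and Cdh19 but 0 Scn7a UMIs. The profile of Mag, Prx and Ncmap cells was the closest for 0 members of each library, and the profile of vascular and immune cells, with at least 3 UMIs of Pecam1, Cldn5 and Flt1 or of Ptprc, Csf1r and C1qa, for 0, 1 and 3. No profile of neurons, fibroblasts or mural cells was among the 5, so no member could be assigned to those. Of the cells with exactly 1 Scn7a UMI, 5 of 13, 22 of 32 and 11 of 28 were closest to the members.

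The listed genes of the Schwann lineage that reached the minimum were under 2-fold apart between the libraries, as were most genes. Of all 3874 genes at the minimum, 1.24% to 2.25% were past 2-fold in each direction of a comparison. A count of 0 in a short list is near that share. Sox10 stood at 639.2 CPM in naive members (548.5 to 740.6), 598.0 at day 7 (495.4 to 715.6) and 550.8 at day 14 (482.3 to 626.2), with intervals that overlap. Among 14 lineage genes, 11 had a mean of at least 50 CPM in the members, the minimum set for comparing levels, and 0 of these differed by 2-fold or more between any pair of libraries. Foxd3, a neural crest factor, measured 350.3, 482.4 and 383.0 CPM. Erbb3, the receptor through which axonal neuregulin reaches Schwann cells, had 577.8, 668.3 and 640.6 CPM, and its partner Erbb2 65.0, 65.3 and 99.3 CPM. In the list of 9 neuregulin pathway genes, 3 reached the minimum and 0 were past 2-fold.

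Across 3874 genes with a mean of at least 50 CPM, a gene was counted as past 2-fold where the ratio of CPM, with 10 CPM added to each, was at least 2 in either direction. At day 7, 69 genes (1.78%) were higher and 87 (2.25%) lower than in naive members, and at day 14, 61 (1.57%) were higher and 73 (1.88%) lower. In both injured libraries 29 genes (0.749%) were higher and 30 (0.774%) lower, counts that share the naive library. Between the injured libraries, 61 genes (1.57%) were higher at day 14 and 48 (1.24%) were lower. The counts given for gene lists below are to be read beside these shares of all genes. The median log2 ratio over these genes was -0.03 for day 7 over naive, -0.04 for day 14 over naive and -0.01 for day 14 over day 7. Scaling to the median ratio of abundant genes put 66.1% of the genes past 2-fold between day 14 and day 7 on the higher side, against 56.0% with total UMIs. Without the 1, 6 and 12 members of the naive, day 7 and day 14 libraries that carried at least 5 UMIs of immune, neuronal or mural genes, 10 genes instead of 29 were higher in both injured libraries.

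Interferon-response genes were far lower in the members of both injured libraries than in naive members. Of 16 listed genes, 13 reached the minimum, 8 were at least 2-fold lower at day 7 and 9 at day 14, with 8 lower in both and 0 higher. Their median log2 ratio was -1.66 at day 7 and -1.82 at day 14, beside the medians near 0 over all genes. The list summed to 7016.3 CPM in the naive library, 2713.5 at day 7 and 1926.6 at day 14. Leaving out the cells with immune, neuronal or mural UMIs gave 6951.7, 2723.0 and 2047.4 CPM.

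Isg15, a ubiquitin-like protein attached to other proteins in antiviral responses, stood at 433.3 CPM in naive members (359.3 to 518.2), 60.3 at day 7 (31.2 to 105.3) and 40.2 at day 14 (23.4 to 64.3). Its naive interval lay above both others, and the naive level was 7.19 times that at day 7 and 10.8 times that at day 14. Ifi27l2a, the gene of the list with the largest difference in CPM, measured 2141.4 (1972.5 to 2320.9), 562.8 (463.4 to 677.2) and 255.3 CPM (209.4 to 308.2). All 3 intervals were apart. Ifit1, which binds viral RNA, stood at 545.3, 105.5 and 85.1 CPM, and Ifit3b at 296.1, 45.2 and 16.5 CPM. The guanylate-binding protein gene Gbp2 measured 642.8, 201.0 and 144.2 CPM, and the membrane tether Bst2 375.6, 110.5 and 80.4 CPM. Transcription factors of the pathway were lower too, with Stat2 at 104.7, 40.2 and 21.3 CPM and Irf7 at 21, 7 and 0 UMIs. With 3 counts in place of the 0, or 7.09 CPM, Irf7 was at least 10.7-fold lower at day 14 than in the naive library, and the exact upper limit of the ratio was 0.126. Ifi27 was an exception at 371.9, 341.7 and 307.3 CPM, with overlapping intervals.

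These transcripts were unevenly spread over naive members. The 15 highest of 142 naive members held 50% of the UMIs of the list, and 1 of them carried 128. That share was held by 13 of 80 members at day 7 and 22 of 128 at day 14. At least 10 UMIs of the list were found in 50 naive members (35.2%), 14 at day 7 (17.5%) and 20 at day 14 (15.6%), although naive members were the shallowest. The median member had 2796.2 CPM of the list in the naive library, 1832.3 at day 7 and 1567.2 at day 14, so the order was also seen in a cell at the middle of the distribution. The chemokine gene Cxcl10 was found in 8 of 142 naive members, 4 of 80 at day 7 and 7 of 128 at day 14. It stood at 213.1, 20.1 and 42.6 CPM, with 26 of the 59 naive UMIs in 1 cell.

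Lower levels in the injured libraries were found in 4 other classes as well, though not in every class. The list summed to 2319.0, 1164.2 and 1165.9 CPM in Fabp7-high cells, 1087.4, 546.5 and 533.7 CPM in Mag, Prx and Ncmap cells, and 6346.6, 3982.6 and 3592.1 CPM in vascular and immune cells. Cells with Entpd2 and Cdh19 but 0 Scn7a UMIs had 2042.6, 890.2 and 990.5 CPM. The order was the opposite in the 13, 32 and 28 cells that met every other limit of the rule with exactly 1 Scn7a UMI, which had 728.1, 878.3 and 1331.6 CPM. In the naive library the members held the highest level among these classes, and at days 7 and 14 the vascular and immune cells did. No difference between classes was tested.

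**Figure D2:**
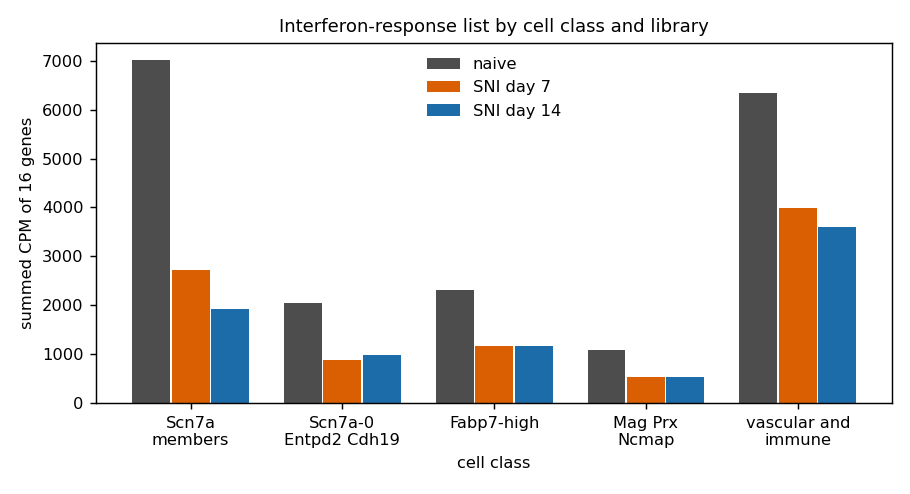
Summed CPM of the 16 interferon-response genes in 5 cell classes (horizontal axis), with 1 bar per library from 0. In each of the 5 classes drawn the naive bar is the tallest, and in the members it stands at 7016.3 CPM against 2713.5 at day 7 and 1926.6 at day 14.

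The promoters of the listed genes were searched for the core of the interferon-stimulated response element, GAAANNGAAA, on both strands. The list was written as interferon-response genes, so its share of matches does not depend on the libraries. RefSeq promoters of 300 bases, from 250 before to 50 after the gene start in GRCm38.p6, were matched by symbol for 11 of the 16 genes, and 7 of these held a match. Ifit2, Irf7, Irf9 and Oasl2 held none, although Oasl2 was lower at both days (log2 ratios -1.66 and -1.82). Of all 27025 symbols with a promoter, 1079 (3.99%) held one. A match describes letters in this window and does not show a bound site. The stretches around the matches of 4 of the lower genes are given 5′ to 3′ on the strand of the gene, with matches in capitals; runs of TTTC are matches on the opposite strand. They lie at chr4:156200865-156200906 (minus strand) for Isg15, chr19:34640775-34640823 (plus strand) for Ifit1, chr19:34583363-34583426 (plus strand) for Ifit3 and chr8:71537577-71537612 (minus strand) for Bst2, all within the promoter windows.
Isg15: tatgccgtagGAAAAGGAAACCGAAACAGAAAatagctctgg
Ifit1: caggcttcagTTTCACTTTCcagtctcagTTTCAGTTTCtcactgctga
Ifit3: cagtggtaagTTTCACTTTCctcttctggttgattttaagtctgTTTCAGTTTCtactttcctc
Bst2: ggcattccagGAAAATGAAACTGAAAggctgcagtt
Isg15 and Bst2 have overlapping matches, while those of Ifit1 and Ifit3 are separate.

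Antigen presentation genes moved less. B2m, the light chain of MHC class I, stood at 1968.0, 1552.7 and 1685.5 CPM, H2-K1 at 1079.7, 844.2 and 900.6 CPM and H2-D1 at 1108.6, 819.1 and 803.7 CPM. All 3 were highest in the naive library and under 2-fold apart. Of 13 listed genes, 11 reached the minimum, 1 was higher and 1 lower at each day, and the median log2 ratios were -0.34 and -0.26. Over all 3874 genes, 1.78% were higher and 2.25% lower at day 7, and 1.57% and 1.88% at day 14. H2-Ab1 was the one higher at day 7, at 28.9, 70.3 and 61.5 CPM. Of its 14 UMIs at day 7, 7 lay in 1 cell, and the interval of its ratio to naive was 0.953 to 6.70. H2-T23, a nonclassical class I gene, was the one lower at both days, at 137.2, 20.1 and 30.7 CPM. Cd74, the class II chaperone and also an immune cell marker, was the one higher at day 14, at 46.9, 100.5 and 120.6 CPM, with 13 of 13, 12 of 20 and 40 of 51 UMIs in 1 cell of each library.

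Among the stress genes, 3 that encode heat shock proteins were highest in naive members, and they are named because of these values. Hspa1a, an inducible chaperone, stood at 281.7 CPM in the naive library (222.6 to 351.5), 40.2 at day 7 (17.4 to 79.2) and 40.2 at day 14 (23.4 to 64.3). The related Hspa1b measured 382.8, 85.4 and 49.6 CPM and the small chaperone Hspb1 303.3, 90.4 and 115.8 CPM. These were the 3 genes lower in both injured libraries among 28 listed stress and immediate early genes, of which 16 reached the minimum, and the list's median log2 ratios were -0.33 and 0.04. Hspa1a was also highest in the naive library in Mag, Prx and Ncmap cells, at 214.0, 74.7 and 73.2 CPM, and in Fabp7-high cells, at 139.3, 78.3 and 56.9 CPM. Hspb1 was low in those classes, at 14.3, 10.8 and 12.6 CPM and 8.85, 6.3 and 7.45 CPM, and higher than in members in vascular and immune cells, at 798.4, 312.0 and 417.9 CPM. Levels of Fos were 126.4, 170.8 and 158.4 CPM and those of Jun 364.7, 211.0 and 361.7 CPM, with Jun lowest at day 7.

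Clock genes differed in both directions. Nr1d1, a repressor that silences Arntl, stood at 54.2 CPM in naive members (30.3 to 89.3), 241.2 at day 7 (177.8 to 319.8) and 260.0 at day 14 (213.7 to 313.4). Both injured levels lay above the naive interval, 4.45-fold (2.45 to 8.56) and 4.80-fold (2.79 to 8.87) higher. A UMI of Nr1d1 was found in 14 of 142, 28 of 80 and 70 of 128 members, and thinning each member to 1500 UMIs, which left out 39, 15 and 10 shallower ones, gave 6.37%, 22.3% and 35.3%. Thinned in the same way, vascular and immune cells gave 18.5%, 14.2% and 17.6%. Per3 measured 21.7, 70.3 and 73.3 CPM, whereas Arntl, the activator of the loop, measured 111.9, 45.2 and 28.4 CPM. Under stricter limits of 1000 genes and 10% mitochondrial UMIs, Per3 was not past 2-fold, at log2 ratios of 0.21 and 0.67. Per1 was low at day 14 alone, at 75.8, 65.3 and 16.5 CPM. Of 17 listed clock genes, 8 reached the minimum, 2 were higher and 1 lower in both injured libraries, and the median log2 ratios were 0.33 and -0.05. Nr1d1 was also lowest in the naive library in Mag, Prx and Ncmap cells, at 26.0, 78.5 and 100.9 CPM, and in Fabp7-high cells, at 42.6, 68.4 and 77.9 CPM, but not in vascular and immune cells, at 148.7, 129.7 and 160.2 CPM. The hour of dissection was not used here.

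**Figure D3:**
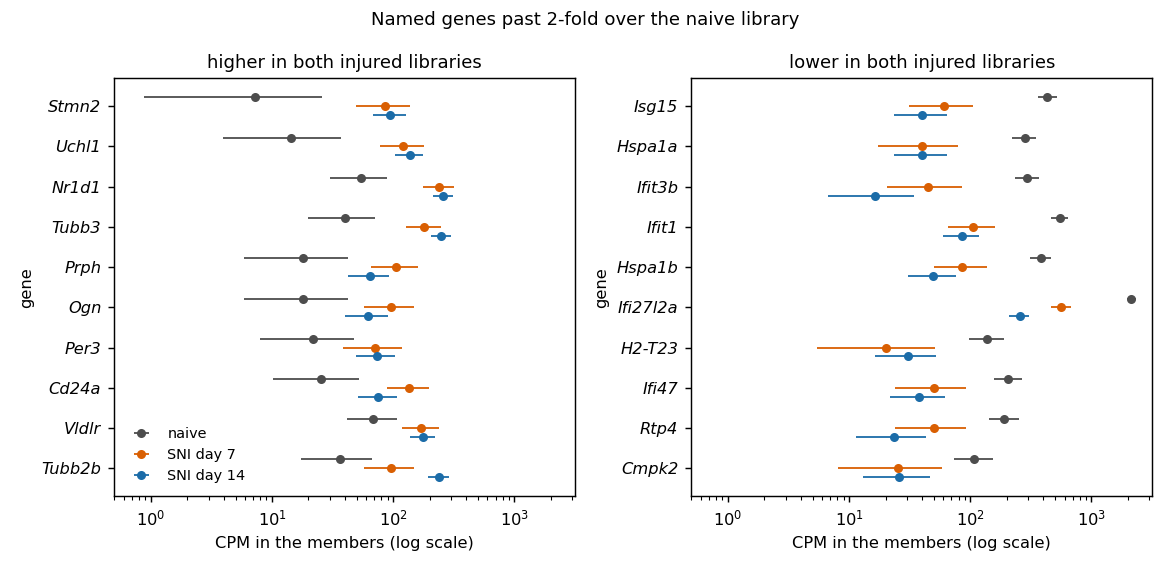
CPM in the members on a log axis for the 10 named genes higher (left) and the 10 lower (right) in both injured libraries than in the naive library, with exact 95% Poisson intervals; gray is naive, orange day 7 and blue day 14. The naive point lies left of both others in the left panel and right of both in the right panel.

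Of the 29 genes higher in both injured libraries, 5 belonged to the list of neuronal genes. Stmn2, a microtubule regulator of growing axons, had 2 UMIs in naive members, 17 at day 7 and 40 at day 14, or 7.22, 85.4 and 94.6 CPM. Uchl1, a ubiquitin hydrolase of neurons, stood at 14.4, 120.6 and 137.1 CPM, and the neuronal tubulin Tubb3 at 39.7, 180.9 and 250.6 CPM. Part of this RNA sat in single cells: at day 14, 24 of the 40 Stmn2 UMIs, 37 of 58 Uchl1 UMIs and 54 of 106 Tubb3 UMIs came from 1 cell each. The 12 listed neuronal genes had 61, 174 and 362 UMIs in members (220.3, 874.3 and 855.7 CPM, with Sncg the most abundant in the naive library at 90.3 CPM and Tubb3 in the injured ones), of which 0, 93 and 228 were in 0, 4 and 8 members with at least 5. Isl1 was at 0 in the naive and day 7 members, and 5 of the 6 genes that reached the minimum were higher at both days. Members with at least 5 UMIs of immune, neuronal or mural genes were picked on those same genes. Lower levels of these genes without such members are therefore partly built into the choice. Without them the list summed to 221.4, 416.0 and 411.4 CPM. Stmn2 then stood at 7.26, 32.4 and 25.1 CPM, Uchl1 at 14.5, 48.6 and 53.4 CPM and Tubb3 at 39.9, 64.8 and 69.1 CPM, and Tubb3 was no longer past 2-fold. The same list summed to 1017.4, 1129.1 and 1001.5 CPM in Mag, Prx and Ncmap cells. At 1500 UMIs per cell, Stmn2, Uchl1 and Tubb3 were no longer past 2-fold in both injured libraries. Stmn2 was then lower at day 14 than in the naive library (log2 ratio -0.35). With at least 3 Scn7a UMIs, Tubb3 was not past 2-fold in both injured libraries either.

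Among the other genes higher in both injured libraries, Prph, a neuronal filament, stood at 18.1, 105.5 and 63.8 CPM, with 20 of its 27 day 14 UMIs in 1 cell, and without members carrying UMIs of other cell types at 18.2, 54.0 and 12.6 CPM. Cd24a, a surface glycoprotein, measured 25.3, 135.7 and 75.6 CPM, with up to 14 and 18 UMIs in 1 cell of the injured libraries, and 25.4, 27.0 and 22.0 CPM without those members. Ogn, a matrix proteoglycan, stood at 18.1, 95.5 and 61.5 CPM in members and at 1903.3, 2783.0 and 2667.9 CPM in Mag, Prx and Ncmap cells. Vldlr, a lipoprotein and reelin receptor, measured 68.6, 170.8 and 174.9 CPM in members and 466.1, 507.4 and 589.0 CPM in Fabp7-high cells. With no more than 5 UMIs of Vldlr in 1 cell at day 7 and 12 at day 14, it was past 2-fold without the members carrying other cell types' UMIs. It was not past 2-fold in both injured libraries with at least 1 Scn7a UMI (log2 ratios 0.76 and 0.82), thinned to 1500 UMIs (1.29 and 0.71), or under stricter limits of 1000 genes and 10% mitochondrial UMIs (1.18 and -0.03). Tubb2b, another tubulin, stood at 36.1, 95.5 and 238.8 CPM. It was at 36.3, 54.0 and 194.7 CPM without members carrying other cell types' UMIs, no longer past 2-fold at day 7, and at 29.9, 95.5 and 98.7 CPM without members with at least 2 Tnc UMIs. Tubb2b was also not past 2-fold in both injured libraries with at least 3 Scn7a UMIs or thinned to 1500 UMIs.

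Immune transcripts also moved with condition. The 15 listed immune genes had 38, 152 and 369 UMIs in members, or 137.2, 763.8 and 872.3 CPM, with Cd74 the most abundant in the naive library, C1qa at day 7 and Lyz2 at day 14 (Lyz2 at 14.4, 130.6 and 264.8 CPM), and Cd3e and Nkg7 at 0. Of these UMIs, 31, 141 and 349 sat in 1, 2 and 3 members, and without members carrying UMIs of other cell types the list summed to 25.4, 54.0 and 40.8 CPM. The complement genes C1qa and C1qc, both higher at each day, belong to the same cells. C1qa then stood at 0, 5.40 and 6.28 CPM, instead of 21.7, 135.7 and 151.3 CPM. All 43 UMIs of the chemokine gene Ccl8 were in 1 day 7 member. The 9 mural genes had 3, 1 and 64 UMIs, with Rgs5 at 0, 0 and 23, the most abundant at day 14, and Higd1b at 0, and 56 of the 64 in 2 day 14 members. The 10 endothelial genes had 7, 7 and 17 UMIs, with Kdr, Tek and Plvap at 0, and the 5 red cell genes 15, 28 and 27 UMIs, with Hbb-bs the most abundant and Alas2 at 0. The rule left out every cell with a Pecam1 UMI, so low endothelial counts are partly built into the choice.

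A small set of day 14 members carried several listed repair genes together with genes of fibroblasts. At least 2 UMIs of both Tnc, a matrix glycoprotein of injured nerve, and Runx2, a transcription factor, were found in 1 of 142 naive members (0.704%, 0.0178% to 3.86%), 0 of 80 at day 7 (up to 4.51%) and 6 of 128 at day 14 (4.69%, 1.74% to 9.92%). The intervals overlap but cover counting error alone, and a difference in share was not tested. Tnc stood at 43.3 CPM in naive members (22.4 to 75.7), 10.0 at day 7 (1.22 to 36.3) and 243.5 at day 14 (198.7 to 295.3). The day 14 interval lay above both others. Runx2 had 7, 0 and 73 UMIs. With 3 counts in place of the 0 it was at least 11.4-fold higher at day 14 than at day 7, and the exact lower limit of the ratio was 9.08. Atf3, an injury-induced transcription factor, stood at 39.7, 25.1 and 182.0 CPM, and Igfbp5, which binds insulin-like growth factors, at 7.22, 30.1 and 409.0 CPM.

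Most of these UMIs lay in the same cells. The 9 day 14 members with at least 2 Tnc UMIs held 68 of the 73 Runx2 UMIs, 54 of 77 Atf3 UMIs, 139 of 173 Igfbp5 UMIs and 35 of 36 UMIs of Btc, a ligand of the epidermal growth factor receptor. The Igfbp5 UMIs lay in 3 of the 9 cells (82, 40 and 17), and 3 of the 9 had 0 Atf3 UMIs. These 9 cells also held 92 of 122 UMIs of Ngfr, a rule gene, which is a description alone. The list of fibroblast genes stood at 3935.9 CPM at day 14 with these cells and at 2303.2 CPM without them, and whether they are doublets was not tested. One of them, with 7809 UMIs in all, carried 14 Tnc, 13 Runx2, 12 Btc, 15 Ngfr, 12 Atf3 and 40 Igfbp5 UMIs beside 10 of Scn7a, and another, with 9725, carried 12 UMIs of the trophic factor gene Gdnf. The naive member with both genes had 4 Tnc, 4 Runx2, 6 Btc and 13 Ngfr UMIs. Without the members with at least 2 Tnc UMIs, Ngfr stood at 89.7, 85.4 and 82.3 CPM, Atf3 at 33.6, 25.1 and 63.1 CPM and Igfbp5 at 7.47, 30.1 and 93.2 CPM. The day 14 levels of these genes thus rested on at most 9 cells in large part, and the cells were picked on Tnc after its values had been seen. Cells with at least 2 UMIs of both genes numbered 0, 1 and 1 among 299, 135 and 171 Fabp7-high cells, and 0, 0 and 1 among 1278, 1069 and 1453 Mag, Prx and Ncmap cells. Among cells with Entpd2 and Cdh19 but 0 Scn7a UMIs they numbered 0 of 48, 0 of 98 and 4 of 157.

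Of 22 listed repair genes, 8 reached the minimum. At day 14, 4 were higher than in naive members (Tnc, Runx2, Id2 and Gfap), with a median log2 ratio of 1.0 for the list, whereas at day 7, 2 were lower and the median was 0.04. These 2 were Tnc and Runx2, with 2 and 0 UMIs at day 7. With no filter on cells, Tnc was higher at day 7 than in the naive library (log2 ratio 0.58). Jun and Sox2, which mark and drive the repair state, were not past 2-fold, with Sox2 at 303.3, 296.5 and 356.9 CPM. Shh had 0, 0 and 1 UMIs, and Olig1, Artn, Lif, Fgf5 and Igfbp2 had 0 in members of any library, which allows up to 10.8, 15.1 and 7.09 CPM. The list summed to 1917.5, 1819.0 and 2619.2 CPM, and to 1827.3, 1819.0 and 2026.3 CPM without the Tnc cells.

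Some collagen and matrix genes were higher at day 14. Col1a1 stood at 480.3 CPM in naive members (402.1 to 569.2), 351.7 at day 7 (274.2 to 444.4) and 1049.6 at day 14 (954.2 to 1151.9), and Postn, a matricellular protein, at 227.5, 236.2 and 515.3 CPM. Their day 14 intervals lay above the others, yet 123 of the 444 Col1a1 UMIs and 53 of the 218 Postn UMIs were in 1 cell each. Without the Tnc cells Col1a1 stood at 437.2, 351.7 and 342.7 CPM and Postn at 168.2, 236.2 and 150.8 CPM, so both were then lowest at day 14. The sum of the matrix list was likewise lowest at day 14 without those cells, at 11087, 11266 and 10655 CPM. In the list of 25 matrix genes, 24 were found by symbol or synonym, 17 reached the minimum, and 4 were higher at day 14 (Tnc, Igfbp5, Col1a1 and Postn) with a median log2 ratio of 0.19, beside 0.04 at day 7, whereas Col3a1 stood at 975.0, 874.3 and 891.2 CPM. Sparc was the most abundant at 3560.5, 3899.4 and 3827.2 CPM. The 11 fibroblast genes summed to 2693.9, 2592.9 and 3935.9 CPM, and to 2641.9, 2592.9 and 2303.2 CPM without the Tnc cells, with Col1a2 the most abundant at 1050.8, 1150.7 and 1652.4 CPM. The fibroblast markers Pdgfra, Mgp and Smoc2 had at most 1, 2 and 0 UMIs in any library. The rule left out every cell with a Dcn or Lum UMI, so low counts of such markers are partly built into the choice.

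Gfap, a filament protein of non-myelinating Schwann cells, had 16, 18 and 54 UMIs in members. This amounts to 57.8 CPM in the naive library (33.0 to 93.8), 90.4 at day 7 (53.6 to 142.9) and 127.7 at day 14 (95.9 to 166.6). The day 14 level was 2.21-fold above the naive one (1.25 to 4.14), and the day 7 interval overlapped both. Gfap UMIs were present in 10 of 142, 8 of 80 and 20 of 128 members, or 7.34%, 6.74% and 12.0% after thinning to 1500 UMIs. In vascular and immune cells, whose median depth of 3356.5, 4289 and 3924 UMIs was above that of the members, 1 of 338, 0 of 395 and 1 of 507 had a Gfap UMI. Without the Tnc cells Gfap stood at 52.3, 90.4 and 148.1 CPM, so this difference was not carried by them. With stricter limits of 1000 genes and 10% mitochondrial UMIs, which left 59, 23 and 29 members, the order of naive and day 14 levels turned around. Fabp7-high cells had 2.76, 0.9 and 6.09 CPM of Gfap and Mag, Prx and Ncmap cells 2.04, 1.1 and 0.821 CPM. Vim, the main filament gene of the members, stood at 1939.2, 1904.5 and 2768.1 CPM. Of 9 filament genes, 6 reached the minimum, Prph and Nefl were higher at both days, Gfap was higher and Synm lower at day 14, and the median log2 ratios were 0.28 and 0.76. Without members carrying other cell types' UMIs, Nefl was not past 2-fold at either day and Prph was lower at day 14 than in the naive library. Thinned to 1500 UMIs, Nefl and Prph were lower at each day than in the naive library.

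Several genes were lowest at day 14. Akap12, a scaffold for protein kinases, stood at 635.6 CPM in naive members (545.1 to 736.7), 638.2 at day 7 (532.0 to 759.3) and 215.1 at day 14 (173.2 to 264.1). The naive and day 7 levels were alike, and were 2.95 and 2.97 times the day 14 level, which was 249.5 CPM without the Tnc cells. Aldh1a1, which makes retinoic acid, measured 133.6, 145.7 and 42.6 CPM in members and at most 1.02 CPM in Fabp7-high cells and in Mag, Prx and Ncmap cells of any library. The neural cadherin Cdh2 stood at 436.9, 512.5 and 224.6 CPM, with the day 14 interval (181.7 to 274.5) below the naive one (362.6 to 522.1). Dnajb2, a neuronal cochaperone, was at 108.3, 115.6 and 35.5 CPM and Bmyc at 50.6, 95.5 and 28.4 CPM. Rnf213, an interferon-inducible ubiquitin ligase, and Herc6, another, stood at 198.6, 75.4 and 30.7 CPM and at 216.7, 90.4 and 52.0 CPM. The order of Rnf213 at days 7 and 14 turned around with the stricter limits on cells (log2 ratio 0.46) and thinned to 1500 UMIs (0.09).

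Among the other named genes of day 14, Dclk1, a microtubule-associated kinase, measured 36.1, 70.3 and 186.7 CPM, the linker histone H1f0 50.6, 100.5 and 167.8 CPM and the ephrin receptor Epha5 61.4, 55.3 and 198.6 CPM. Without the Tnc cells Dclk1 stood at 85.0 CPM at day 14, Epha5 at 74.0 and H1f0 at 142.6. Aebp1, a collagen-binding protein, stood at 83.1, 30.1 and 182.0 CPM, and at 76.8 CPM at day 14 without those cells. Named genes of day 7 rested on few UMIs. Ncstn, a subunit of the gamma-secretase that cleaves neuregulin among other proteins, had 8, 22 and 29 UMIs (28.9, 110.5 and 68.6 CPM), and the cadherin Cdh11 7, 18 and 25 (25.3, 90.4 and 59.1 CPM). Mospd2 stood at 21.7, 80.4 and 52.0 CPM, Nefl at 28.9, 125.6 and 68.6 CPM and Ank2, an axonal scaffold, at 21.7, 100.5 and 52.0 CPM. Without members carrying other cell types' UMIs, Nefl was at 29.0, 59.4 and 59.7 CPM and Ank2 at 21.8, 48.6 and 34.5 CPM, neither past 2-fold at day 7. Thinned to 1500 UMIs, both were lower at day 7 than in the naive library (log2 ratios -0.29 and -0.66). Ints6l and the peroxisomal enzyme Hsd17b4 were low at day 7 alone, with 26, 3 and 45 UMIs and 18, 3 and 35 UMIs.

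Potassium channels of the Kv1 family were abundant in the members of each library. Kcna1 stood at 2296.7 CPM in the naive library (2121.6 to 2482.3), 1964.8 at day 7 (1774.8 to 2169.5) and 1988.0 at day 14 (1855.9 to 2127.1), and Kcna2 at 1541.9, 1422.1 and 1635.8 CPM. A UMI of Kcna1 was found in 93.0%, 90.0% and 93.0% of members (91.0%, 82.5% and 86.8% thinned), against 3.25%, 7.09% and 4.93% of vascular and immune cells (1.01%, 2.40% and 1.51% thinned). Mag, Prx and Ncmap cells had one about as often as members, in 91.5%, 96.8% and 97.2% (82.5%, 88.0% and 86.3% thinned), at 1339.2, 1704.2 and 1495.2 CPM. Its level in Fabp7-high cells was 107.8, 107.1 and 158.4 CPM. Kcna6 measured 660.8, 678.4 and 565.0 CPM. Of 24 listed channels and receptors, 14 reached the minimum and 1 was past 2-fold, the endothelin receptor Ednrb at day 7, at 260.0, 572.8 and 446.8 CPM. Over all 3874 genes, 1.24% to 2.25% were past 2-fold in each direction of a comparison. A count of 1 over all comparisons of this list is near that share. Fabp7-high cells had 1493.5, 1888.5 and 1717.0 CPM of Ednrb. Lpar1, a receptor for lysophosphatidic acid, stood at 509.2, 703.5 and 546.1 CPM, and the list's median log2 ratios were 0.22 and 0.09.

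Few adhesion and basal lamina genes were past 2-fold, though several had intervals apart. These counts are near the share over all 3874 genes, 1.24% to 2.25% in each direction of a comparison. Cadm1, which binds axonal partners, measured 1921.1, 1864.3 and 1546.0 CPM, with the day 14 interval (1429.8 to 1669.2) below the naive one (1761.3 to 2091.5), and Cadm4 899.2, 793.9 and 711.5 CPM. Of 17 axon adhesion genes, 11 reached the minimum, 0 were past 2-fold over the naive library and Cdh2 was lower at day 14 than at day 7. Of 20 basal lamina genes, 18 reached the minimum and 0 were past 2-fold, with median log2 ratios of -0.03 and -0.06. Dag1, the dystroglycan that anchors Schwann cells to laminin, stood at 494.7 (415.3 to 584.8), 829.1 (707.4 to 965.7) and 936.1 CPM (846.2 to 1033.0), with both injured intervals above the naive one. The integrin Itgb8 measured 718.6, 904.5 and 1189.0 CPM, with the day 14 interval (1087.4 to 1297.6) above the naive one (622.2 to 825.7).

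No listed lipid gene that reached the minimum was past 2-fold. Over all 3874 genes, 1.24% to 2.25% were, in each direction of a comparison. Counts of 0 in the lists of this paragraph are near that share. Apoe, which carries cholesterol between cells, stood at 7594.1, 8914.3 and 6893.1 CPM in members and at 38153, 32316 and 30942 CPM in Fabp7-high cells. The cholesterol exporter Abca1 stood at 288.9 (229.1 to 359.5), 261.3 (195.2 to 342.7) and 501.1 CPM (436.0 to 573.3), and the fatty acid binding protein gene Fabp5 at 411.7 (339.6 to 494.5), 407.0 (323.2 to 505.9) and 241.1 CPM (196.6 to 292.7). Abca1 was highest and Fabp5 lowest at day 14, with intervals apart from both others. Scd2, a fatty acid desaturase, measured 3253.6, 3607.9 and 3380.4 CPM. Of 21 cholesterol and fatty acid genes 17 reached the minimum, and of 12 lipid transport genes 6 did, with 0 of these past 2-fold. The 11 satellite glia genes summed to 9898.0, 11904 and 9278.3 CPM in members, Apoe being the most abundant, and to 43814, 38158 and 36616 CPM in Fabp7-high cells. Of their 9 genes at the minimum, Ednrb was past 2-fold at day 7 and Egr3 was lower at day 14 than at day 7. Of 17 myelin genes 7 reached the minimum, and of 12 myelinating Schwann cell genes 4 did, with 0 past 2-fold.

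Complement component C4b was abundant in the members, at 1476.9, 1321.6 and 966.8 CPM, against 123.9, 160.2 and 245.8 CPM in Fabp7-high cells. Its level was lowest at day 14 in members (interval 875.4 to 1065.2), whereas in Fabp7-high cells it was highest there. Cd59a, which protects cells from complement, stood at 780.0, 793.9 and 638.3 CPM. Of 12 complement genes, 6 reached the minimum and C1qa and C1qc were higher at both days. However, 21 of 27 C1qa UMIs at day 7 and 53 of 64 at day 14 lay in 1 cell each. Without members carrying other cell types' UMIs, C1qa stood at 0, 5.40 and 6.28 CPM. Of 23 cytokine pathway genes, 6 reached the minimum, Cxcl10 was lower at both days and the acute phase gene Serpina3n was higher at day 14, at 72.2, 115.6 and 226.9 CPM. Il6st, the receptor subunit shared by interleukin 6 family cytokines, measured 386.4, 326.6 and 385.3 CPM, while Il6, Cntf and Cxcl1 had 0 UMIs in members of any library.

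Among the cell cycle genes, 5 were not detected in the members. Mki67, Top2a, Ccnb1, Cdk1 and Birc5 had 0 UMIs in all 3 libraries, which allows up to 10.8 CPM of each in the naive library, 15.1 at day 7 and 7.09 at day 14. Pcna, a DNA replication factor, had 19, 20 and 24 UMIs, and Mcm2, Mcm6 and Tyms had at most 5 each in any library. Ccnd1, a cyclin of early G1 phase, stood at 260.0, 361.8 and 281.3 CPM. Of 18 cell cycle genes, 6 reached the minimum and 0 were past 2-fold, near the share of 1.24% to 2.25% over all genes in each direction.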

How the data were processed

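Per the labels, polyA RNA of dissociated L3 and L4 DRGs was sequenced in 3 libraries with 10x Genomics chemistry. The authors deposited counts of UMIs per gene and barcode, and the submitters' processing notes name Cell Ranger 3.0.2 and mm10; the annotation is not given in the sources used here, and the methods of the paper do not describe these male SNI mice. Kept cells had 500 or more detected genes and a mitochondrial share of UMIs of 20% or less (310, 245 and 444 left out for few genes, then 286, 354 and 636 for mitochondrial share). UMIs of the members were summed per library over 31053 genes and divided by their total (CPM). A count of 0 was given a limit of 3 counts. No test was made between conditions, since each has 1 library. Intervals were exact Poisson for levels, Clopper-Pearson for shares and conditional binomial for ratios.

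Named genes were the 10 highest and 10 lowest by the smaller log2 ratio among those past 2-fold in both injured libraries, and the 5 highest and 5 lowest of each comparison, with a mean of at least 50 CPM and a UMI in at least 10% of members of the higher library, and up to 4 abundant genes of each list; other genes were named after their values were seen. Members and the 29 gene lists were chosen with earlier results of these data known. The counting steps were tested on simulated data. Python 3.11.15, numpy 2.4.6, scipy 1.17.1, pandas 2.3.3 and matplotlib 3.10.9 were used.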

Additional observations from a re-analysis of the deposited data

Results flagged for a closer look

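The summed level of the chemokine gene Cxcl10 moved in opposite directions in neighboring glia. Its log2 ratio of day 14 over naive, with 10 CPM added, was -2.09 in the members, whereas it was 2.03 in Fabp7-high cells. In the members the gene stood at 213.1, 20.1 and 42.6 CPM in the naive, day 7 and day 14 libraries, and in Fabp7-high cells at 19.9, 43.2 and 112.4 CPM. The difference between the classes was not tested, and the naive UMIs of the members lay in 8 cells.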

How the results depend on the processing

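Each alternative changed 1 choice, except that the stricter filter on cells, and no filter, changed the limits on genes and on mitochondrial UMIs together, and thinning also left out cells below 1500 UMIs and chose members again (103, 54 and 113). Of the alternatives, 3 were chosen after seeing the data: leaving out members with at least 5 UMIs of immune, neuronal or mural genes, leaving out members with at least 2 Tnc UMIs, and allowing 1 UMI of Dcn, Lum and Pecam1. Of 2340 values for 52 named genes, 19 reversed, which was counted only where the main log2 ratio was at least 1 in size. Of the others, 2167 stayed within their interval and 154 moved further, and changes of sign among these were not counted. Of 27 values for shares of members, 21 stayed within the interval and 6 moved, and of 136 counts of genes past 2-fold, 83 stayed within 1.5 times and 53 did not. Counts below are given for day 7 over naive, day 14 over naive, day 14 over day 7 and both injured libraries over naive, where they moved. The cause was not tested for any of these, except where fewer or more genes were compared by construction.

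With at least 1000 genes and at most 10% of mitochondrial UMIs, the share of members was 2.12% at day 7 and 2.13% at day 14. The counts were then 331 higher and 394 lower at day 7, 239 and 280 at day 14, 451 and 436 for day 14 over day 7, and 85 and 68 for both, among few members. The log2 ratio was -0.03 for Vldlr and -0.76 for Gfap at day 14 over naive, and 0.46 for Rnf213 at day 14 over day 7. With no filter on cells, 39 genes were higher at day 7, 36 at day 14 and 19 in both, day 14 over day 7 gave 38 higher and 29 lower, and Tnc at day 7 over naive was 0.58.

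With at least 1 Scn7a UMI the share was 4.18% at day 7 and 4.08% at day 14, 35 genes were higher at day 14 than at day 7, and Tubb2b at day 14 over day 7 was -0.18. With at least 3 Scn7a UMIs 92 genes were higher at day 14 than at day 7. Thinned to 1500 UMIs, the share was 3.75% in the naive library and 2.17% at day 7. The counts were then 176 higher and 276 lower at day 7, 121 and 185 at day 14, 232 and 205 for day 14 over day 7, and 46 and 51 for both. Thinned log2 ratios at day 7 over naive were -0.59 for Prph, -0.67 for Cd24a, -0.66 for Ank2 and -0.29 for Nefl. At day 14 over naive they were -0.35 for Stmn2, -1.0 for Prph, -0.24 for Cd24a and -0.12 for Nefl, and Rnf213 at day 14 over day 7 was 0.09.

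Without members over 4 times the median UMIs, Prph at day 14 over naive was -0.27. Without members carrying immune, neuronal or mural UMIs it was -0.32, Cd24a was -0.15, and 10 genes were higher in both injured libraries. Without members with at least 2 Tnc UMIs, Ngfr was -0.11 at day 14 over naive and -0.05 at day 14 over day 7. With each member weighted equally, 84 genes were lower at day 14 than at day 7. Leaving out the highest member cell of each gene gave 36 higher at day 7, 36 higher at day 14, 28 lower for day 14 over day 7 and 15 higher in both.

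Totals without mitochondrial and ribosomal protein genes gave 109 higher at day 7, 98 higher at day 14 and 100 higher for day 14 over day 7, with 4521 genes compared. A pseudocount of 1 CPM gave 107 higher and 136 lower at day 7, 96 and 77 for day 14 over day 7, and 44 higher in both. A mean of at least 100 CPM, with fewer genes by construction, gave 12 higher and 24 lower at day 7, 19 and 32 at day 14, 14 and 10 for day 14 over day 7, and 7 and 16 for both. No minimum level, with more genes by construction, gave 739 and 598, 484 and 325, 534 and 474, and 188 and 111 in the same order.

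No paired analysis was possible because there was a single library of each condition. The members' UMIs limit what can be seen: 1 UMI is 5.02 CPM at day 7, and intervals do not cover differences between mice or preparations.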
